A study of Mus musculus with 6 samples.

Results

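Hepatic expression of 47 genes of glucose handling was compared between WT and *Fmo5-/-* mice. The genes encode enzymes, transporters and regulatory subunits of glycolysis, gluconeogenesis, glycogen and fructose metabolism, together with the glycerol phosphate and pentose phosphate branches. They were picked by gene symbol, by their place in these pathways, with earlier results of these data known. The deposited tables list 54446 genes, of which 48 rows carry 1 of the 47 symbols, because *Aldoa* is listed under 2 identifiers and the minor of them held too few counts to be tested. Of all listed genes, 16734 passed the filter on low counts, and these include all 47.

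The 6 libraries, 1 per mouse, came from the livers of 3 WT and 3 *Fmo5-/-* male mice, C57BL/6 in the labels and C57BL/6J in the study's methods, all 32 weeks of age and on chow. The only difference between the groups that the labels give is the genotype, a homozygous disruption of *Fmo5*, which encodes flavin-containing monooxygenase 5. The livers were taken between 9 and 12 in the morning from mice with free access to food. Mice are named as the first, the second and the third of a genotype, and these numbers carry no order and pair no animals.

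Each library held between 44886286 and 52338675 counts on genes. A normalized count, as used below, is the count divided by the library size scaled by edgeR's TMM method and multiplied by the mean of the 6 scaled sizes. For *Fmo5* itself, the WT mice gave 39808, 37405 and 30239.7 normalized counts and the *Fmo5-/-* mice 1071, 1102 and 1194, in the direction of the labels (log2 fold change -5.00, edgeR adjusted p = 2.79e-07). Summed hepatocyte markers overlapped between the genotypes, at 119503 to 152855 CPM (counts per 1e6 counts) in WT and 120137 to 148902 in *Fmo5-/-* mice. In whole liver, fewer cells of a type and less RNA per cell cannot be told apart.

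Liver takes up glucose through the transporter GLUT2, phosphorylates it, and either stores it as glycogen or breaks it down by glycolysis to pyruvate, and during fasting it runs the opposite route, gluconeogenesis, to feed the blood. Most steps are shared by both directions, and the direction is set at a few steps with separate enzymes, namely hexose phosphorylation, the interconversion of fructose 6-phosphate and fructose 1,6-bisphosphate, and the pyruvate to phosphoenolpyruvate step. Hepatocytes use liver forms of many of these enzymes, such as L-type pyruvate kinase, liver glycogen synthase and liver glycogen phosphorylase, while other cell types of the organ use forms that are common elsewhere in the body.

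Of the 47 genes, 2 were differentially expressed, *Gpd2* and *Pfkfb1*, and both were lower in *Fmo5-/-* mice. A gene was called differentially expressed where its adjusted p was under 0.05 by edgeR's quasi-likelihood test, with Benjamini-Hochberg adjustment over all tested genes, and its mean normalized count was 500 or more. By this rule 0.753% of all tested genes were called, 0.496% as lower and 0.257% as higher. DESeq2, run on the same counts with the same limits, called 12 of the 47 genes, 10 lower and 2 higher, and 4.78% of the 15571 genes to which it gave an adjusted p, 3.39% as lower and 1.39% as higher. The 10 lower genes were *Gpd1*, *Gpd2*, *Gk*, *Pfkfb1*, *Pgk1*, *Ldha*, *Slc2a2*, *Gys2*, *Pygl* and *Pgm3*, and the 2 higher genes were *Pkm* and *Aldoc*. These shares of all genes, by either method, also count genes with a mean under 500, which could not be called. That mean was reached by 7819 of the 16734 tested genes and by 38 of the 47, so the shares understate the background for the 47.

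The direction of the differences varied with the level of the gene. A mean of 500 or more was reached by 38 of the 47 genes, and 31 of these had a log2 fold change below 0, where 64% of all genes at that level did. The 31 became 29 when the limit of 500 was set before the fit, and 30 with counts of 1 strand or with scaling without the 20 most abundant genes. The share called by edgeR was 1.61% of all genes at that level. In 19 of these 38 genes, or 50%, all 3 *Fmo5-/-* mice lay below all 3 WT mice, against 21.9% of all genes at that level, and in 2 of them, *Pkm* and *Aldoc*, all 3 lay above, against 9.39%. The median log2 fold change was -0.28 over the 38 genes and -0.06 over all genes at that level. Among the 9 genes with a mean under 500, 7 had a log2 fold change above 0, beside 5682 of all 8915 genes under 500. The median was 0.48 over the 9 and 0.12 over all genes under 500. In 4 of the 9, *Hk2*, *Hk3*, *Gys1* and *Pfkp*, all 3 *Fmo5-/-* mice lay above all WT mice, against 17.8% of all genes under 500. Over the whole range of levels, 19 of the 47 genes were lower and 6 higher without overlap, beside 13.5% and 13.9% of all tested genes. At an unadjusted p under 0.05, 18 of the 47 genes were lower and 6 higher, beside 10.2% and 11.6% of all tested genes. Of the 38 with a mean of 500 or more, 18 were lower and 2 higher at that p, beside 1378 and 596 of all 7819 genes at that level.

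**Figure D1:**
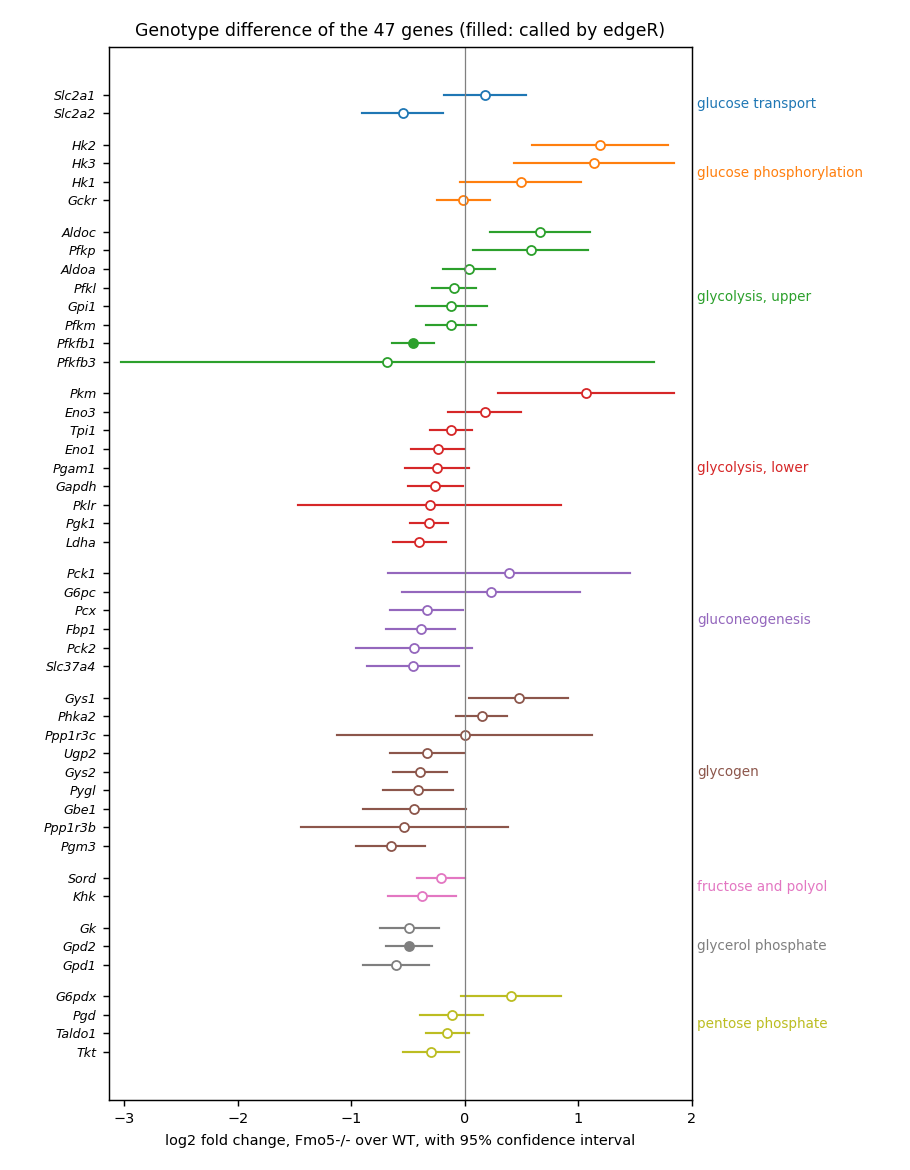
Log2 fold change, *Fmo5-/-* over WT, of each of the 47 genes, grouped by role, with its 95% confidence interval from edgeR. Filled points mark the 2 called genes, *Pfkfb1* at -0.45 and *Gpd2* at -0.49; the widest interval belongs to *Pfkfb3*.

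Levels of different genes were compared as normalized counts per kilobase of exon. In WT mice, the gluconeogenic enzyme gene *Fbp1* was the highest of the 47, at 23187 to 26166, followed by *Sord*, sorbitol dehydrogenase of the polyol pathway, at 17574 to 20541, and *Khk*, fructokinase, at 15402 to 17416. The 3 ranges do not touch, but the order depends on the gene length, since with the longest transcript as length *Ldha* moved from rank 4 to rank 2. *Pck1* at 7301 to 13408, *Gpd1* at 7678 to 9823 and *G6pc* at 5189 to 8595 came next after *Ldha* at 11447 to 13122, and their ranges over the 3 WT mice overlapped. The lowest levels per kilobase were those of *Hk1* at 17.3 to 19.7, *Pfkp* at 11.7 to 14.3 and *Hk2* at 11 to 16.9, of which the last 2 did not differ beyond their spread. Among the genes with a WT mean under 100 per kilobase, *Pfkfb3* stood out by its range over the WT mice, 23.4 to 178.

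**Figure D2:**
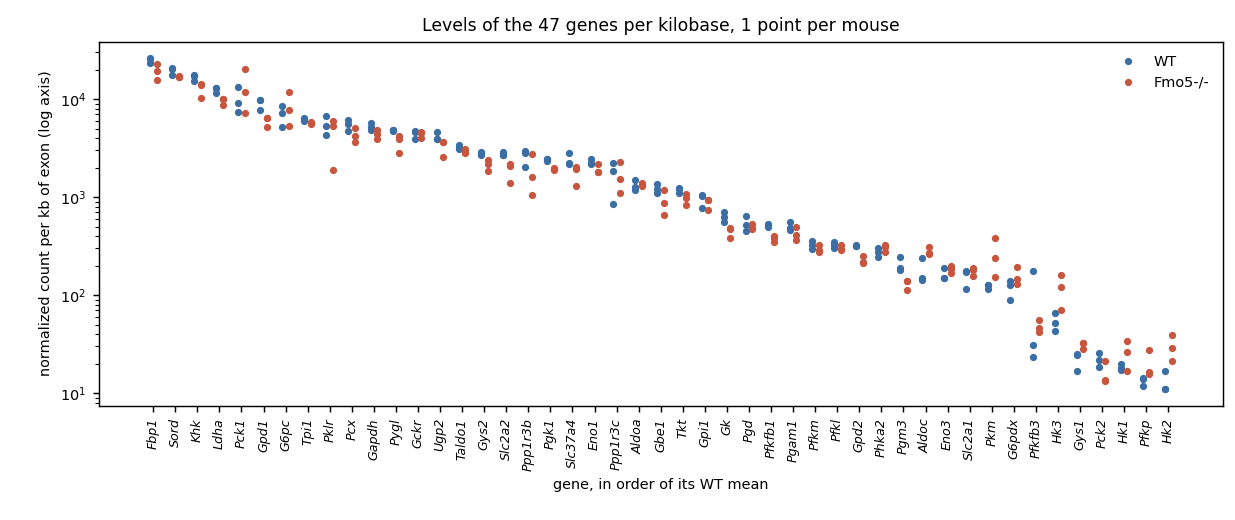
Normalized counts per kilobase of exon, on a log axis, for the 47 genes in the order of their WT means, with 1 point per mouse (blue WT, red *Fmo5-/-*). Levels run from *Fbp1* at 23187 to 26166 down to *Hk2* at 11 to 16.9 in WT mice, and *Pkm*, *Hk3* and *Hk2* at the low end have all red points above the blue ones.

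All 3 glycerol phosphate genes had lower values in each *Fmo5-/-* mouse than in the lowest WT mouse, beside 21.9% of all genes with a mean of 500 or more, and 1 of them was called, beside 1.61%. *Gpd2* (chr2:57237635-57370719) encodes the mitochondrial glycerol 3-phosphate dehydrogenase, which passes electrons to the respiratory chain. Its normalized counts were 2070.4, 2150.3 and 2057 in the WT mice and 1660.0, 1386 and 1415 in the *Fmo5-/-* mice, with means of 2093 ± 50.4 for WT and 1487 ± 151 for *Fmo5-/-* (SD, n = 3 each). The difference was 28.9% of the WT mean (log2 fold change -0.49, standard error 0.089, adjusted p = 0.043 by edgeR), and DESeq2 gave an adjusted p of 0.00048. *Gpd1* (chr15:99717515-99725005), the cytosolic partner of the same shuttle, had 29047, 29085 and 22735 in the WT mice and 18905, 15331 and 18889.9 in the *Fmo5-/-* mice. Its highest *Fmo5-/-* value lay under its lowest WT value, but it missed the threshold of edgeR (log2 fold change -0.61, standard error 0.13, adjusted p = 0.055) and passed that of DESeq2. Without the third WT mouse, or without the third *Fmo5-/-* mouse, edgeR called it as well, at an adjusted p down to 0.0447. *Gk* (chrX:85701937-85776819), glycerol kinase, which makes glycerol 3-phosphate from free glycerol, had 5404, 4837 and 4359 in the WT mice and 3740.2, 2978 and 3692 in the *Fmo5-/-* mice (log2 fold change -0.49, standard error 0.12, adjusted p = 0.07). In all 3 genes the second *Fmo5-/-* mouse was the lowest of the 6.

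*Pfkfb1* (chrX:150588229-150643878) encodes the liver form of the bifunctional enzyme that makes and degrades fructose 2,6-bisphosphate, the activator of phosphofructokinase and inhibitor of fructose 1,6-bisphosphatase. Its normalized counts were 2149.8, 1983 and 2101 in the WT mice and 1398, 1617 and 1534 in the *Fmo5-/-* mice, with means of 2078 ± 85.8 for WT and 1516 ± 111 for *Fmo5-/-* (SD, n = 3 each). The difference was 27% of the WT mean (log2 fold change -0.45, standard error 0.083, adjusted p = 0.043 by edgeR), and here the first *Fmo5-/-* mouse was the lowest. *Apex2*, on the opposite strand, overlaps *Pfkfb1*, and since the libraries do not keep the strand, reads of both genes cannot be told apart where they overlap. Both calls depended on all 6 libraries but 1. They held without the third *Fmo5-/-* mouse, at adjusted p of 0.0488 for *Gpd2* and 0.042 for *Pfkfb1*, while without any of the other 5 mice the adjusted p rose above 0.05, to at most 0.123 for *Gpd2*, without the first WT mouse, and 0.141 for *Pfkfb1*, without the same mouse. The log2 fold change stayed between -0.58 and -0.44 for *Gpd2* and between -0.50 and -0.40 for *Pfkfb1* when 1 mouse was left out.

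In upper glycolysis, *Gpi1*, glucose 6-phosphate isomerase, had a log2 fold change of -0.12 (adjusted p = 0.66), and the liver and muscle phosphofructokinase subunits *Pfkl* and *Pfkm* had -0.09 (adjusted p = 0.58) and -0.12 (adjusted p = 0.51). Without 1 mouse these ran from -0.24, without the first WT mouse, to -0.013, without the second *Fmo5-/-* mouse, for *Gpi1*, and were -0.037 for *Pfkl* and -0.050 for *Pfkm* without the first WT mouse. The aldolase gene *Aldoa* had 3659, 3413 and 4368 in the WT mice and 3909.8, 4075 and 3779 in the *Fmo5-/-* mice, which overlap throughout. *Gckr*, the regulatory protein that holds glucokinase in the nucleus, had 20055, 16994 and 20275 in the WT mice and 19594, 17298 and 19886 in the *Fmo5-/-* mice, and the 95% confidence interval around its log2 difference of -0.01 was -0.25 to 0.22.

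In lower glycolysis, 7 of the 9 genes had a log2 fold change below 0, 5 of them without overlap between the genotypes, beside 64% and 21.9% of all genes with a mean of 500 or more. EdgeR called 0 of the 9, with 4 lower and 1 higher at an unadjusted p under 0.05. The shares were 10.2% and 11.6% of all tested genes, and 1378 and 596 of the 7819 genes with a mean of 500 or more. DESeq2 called *Pgk1* and *Ldha* as lower and *Pkm* as higher, beside 3.39% and 1.39% of the genes to which it gave an adjusted p. *Pgk1* (chrX:106187100-106203699), phosphoglycerate kinase, which makes the first ATP of the pathway, had 5555, 5508 and 5191 in the WT mice and 4476, 4268 and 4344 in the *Fmo5-/-* mice. The spread within each genotype was small, with a coefficient of variation of 3.65% in WT and 2.41% in *Fmo5-/-* mice, and the gap between the genotypes was wider than either range (log2 fold change -0.31, standard error 0.075, adjusted p = 0.071). *Ldha* (chr7:46841475-46855627), the lactate dehydrogenase subunit that interconverts pyruvate and lactate, had 43352, 43434 and 37889 in the WT mice and 32933, 33088 and 28486 in the *Fmo5-/-* mice (log2 fold change -0.40, standard error 0.10, adjusted p = 0.078). The *Fmo5-/-* values of both genes lay below every WT value. *Gapdh*, often used as a reference gene, had 19985, 21269 and 23373 in the WT mice and 19901, 16021 and 18041 in the *Fmo5-/-* mice, with the lowest WT mouse just above the highest *Fmo5-/-* mouse (log2 fold change -0.26, standard error 0.11, adjusted p = 0.2). *Eno3*, the muscle enolase, had 258, 258 and 330.2 in the WT mice and 289.7, 325 and 344 in the *Fmo5-/-* mice (log2 fold change 0.18, adjusted p = 0.51). *Eno1*, enolase 1, differed by -0.24 (adjusted p = 0.22), *Pgam1*, phosphoglycerate mutase, by -0.24 (adjusted p = 0.3) and *Tpi1*, triosephosphate isomerase, by -0.12 (adjusted p = 0.42) on the log2 scale. Near-identical processed copies of *Gapdh*, *Pgk1*, *Tpi1*, *Ldha*, *Eno1* and *Pgam1* exist in the mouse genome, and reads that map to several places were not counted, so the levels of these genes are uncertain to that extent.

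Glucose enters and leaves hepatocytes through GLUT2, encoded by *Slc2a2* (chr3:28697903-28731359). *Slc2a2* had 15401, 16458 and 15399 in the WT mice and 12519, 7963 and 11894 in the *Fmo5-/-* mice. All *Fmo5-/-* mice lay below the WT mice, the second of them by far the most, and the difference did not pass edgeR's threshold (log2 fold change -0.55, standard error 0.16, adjusted p = 0.099), while DESeq2 gave an adjusted p of 0.012. The gene lies 68.9 Mb from *Fmo5* on the same chromosome. *Slc2a1*, which encodes GLUT1, the transporter of red cells and many other cell types, had 622, 409.5 and 600.2 in the WT mice and 638, 553 and 659 in the *Fmo5-/-* mice, with overlap.

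**Figure D3:**
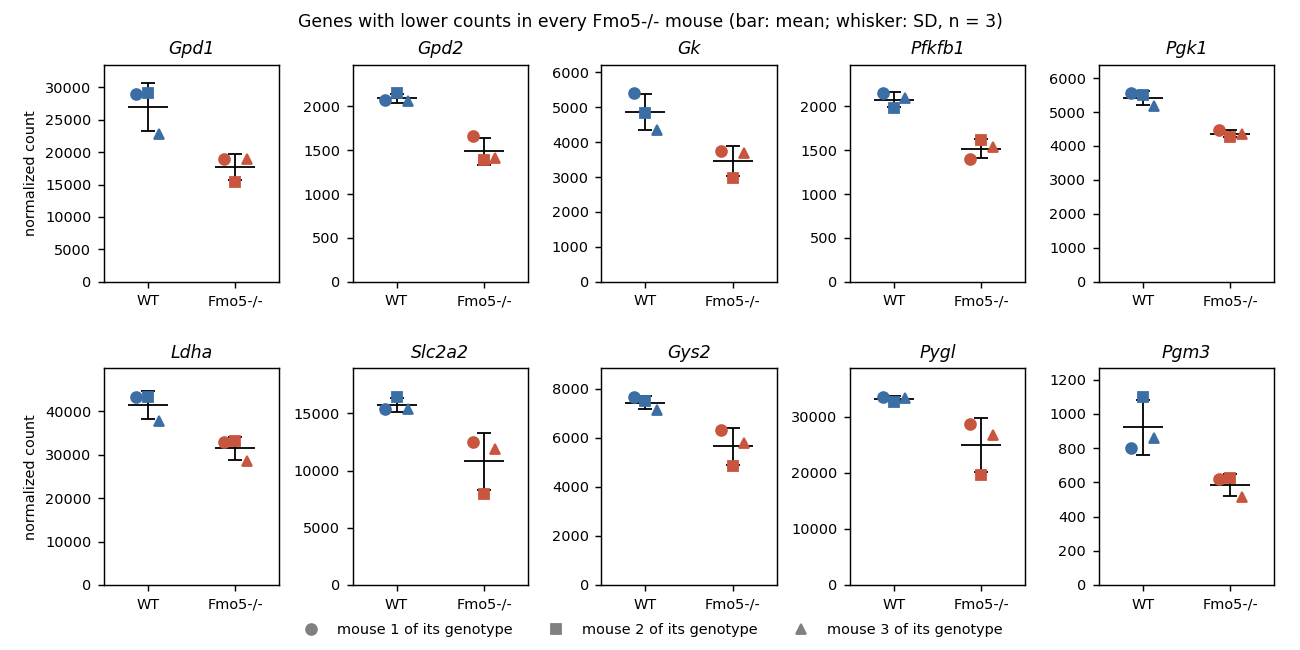
Normalized counts per mouse of 10 genes with lower values in every *Fmo5-/-* mouse, each panel starting at 0, with the mean as a bar and the SD as whiskers (n = 3 per genotype). *Gpd2* and *Pfkfb1* are the 2 genes called by edgeR; in *Slc2a2* and *Pygl* the second *Fmo5-/-* mouse (square) lies well below the other two of its genotype.

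Of the 6 gluconeogenic genes, 0 were called by edgeR or DESeq2, beside 0.753% and 4.78% of all genes. At an unadjusted p under 0.05 there were 3, all lower, beside 10.2% of all tested genes and 1378 of the 7819 with a mean of 500 or more. *Fbp1* (chr13:62864753-62888282), fructose 1,6-bisphosphatase, had 44534, 43807 and 39464 in the WT mice and 38481, 26685 and 32569 in the *Fmo5-/-* mice (log2 fold change -0.39, standard error 0.13, adjusted p = 0.14). *Slc37a4*, the carrier that brings glucose 6-phosphate into the endoplasmic reticulum, had 6371, 7976 and 6213 in the WT mice and 5566, 3706 and 5737 in the *Fmo5-/-* mice (log2 fold change -0.45, standard error 0.18, adjusted p = 0.19). In both genes the genotypes did not overlap and the second *Fmo5-/-* mouse was the lowest, and without it the log2 fold change of *Slc37a4* was -0.28. *Pcx*, pyruvate carboxylase, had 28853, 26454 and 22253 in the WT mice and 24123, 17278 and 20024 in the *Fmo5-/-* mice, with the first *Fmo5-/-* mouse inside the WT range (log2 fold change -0.34, standard error 0.14, adjusted p = 0.21). *Pck2*, the mitochondrial phosphoenolpyruvate carboxykinase, was low in liver, with 169, 144 and 202 in the WT mice and 106, 167 and 105 in the *Fmo5-/-* mice.

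The genes of the hormone-controlled steps, *Pck1* and *G6pc*, behaved otherwise. *Pck1* (chr2:173153048-173159273), the cytosolic phosphoenolpyruvate carboxykinase, had 25035, 45975 and 31626 in the WT mice and 68732, 40955 and 24706 in the *Fmo5-/-* mice. The first *Fmo5-/-* mouse was the highest and the third the lowest of all 6, so the spread within the genotype covered the WT range, and around a log2 difference of 0.39 the 95% confidence interval ran from -0.68 to 1.46. *G6pc* (chr11:101367561-101377903), the catalytic subunit of glucose 6-phosphatase, had 12527, 20749 and 17564 in the WT mice and 28307, 12783 and 18669 in the *Fmo5-/-* mice, again highest in the first *Fmo5-/-* mouse (log2 fold change 0.23, standard error 0.32, adjusted p = 0.73). Without that mouse the log2 fold change was -0.061 for *Pck1* and -0.11 for *G6pc*. In the same mouse *Igfbp1* and *Irs2*, a pair of genes induced by fasting and low insulin, were also at their highest, at 4458 and 1416 against 725 to 2708 and 451 to 913 in the other 5 mice. They were the only 2 of 15 genes on a list of fasting-induced genes that were highest in this mouse. The part of feeding state in the spread of *Pck1* and *G6pc* was not tested.

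The start of *Pck1* is shown because this gene is the classical example of control by cAMP, the messenger of glucagon. The window is that of RefSeq on GRCm38.p6, chr2:173152823-173153122 on the plus strand, from 250 bases before to 50 bases after the annotated start, and capitals mark the 8 letters TTACGTCA, which begin 93 bases before the start.
*Pck1*: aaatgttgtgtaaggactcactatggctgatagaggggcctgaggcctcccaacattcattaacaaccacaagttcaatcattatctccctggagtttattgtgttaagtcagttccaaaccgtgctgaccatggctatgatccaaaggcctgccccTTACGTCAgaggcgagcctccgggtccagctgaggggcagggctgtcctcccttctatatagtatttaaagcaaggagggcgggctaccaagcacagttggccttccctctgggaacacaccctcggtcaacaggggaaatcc
Searched on both strands, TTACGTCA is in 0.499% of the 32851 RefSeq mouse windows of this length, and among the 66 windows of the 44 matched genes described here it is in that of *Pck1* alone. The full palindrome TGACGTCA, which differs from it by 1 letter, so that no stretch matches both, is in 1.79% of all windows and among the matched genes in that of *Ldha* alone. *Gys2*, *Gpd1* and *Ppp1r3b* were not matched.

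Of the 9 genes placed with glycogen, 7 had a log2 fold change below 0, beside 64% of all genes with a mean of 500 or more. EdgeR called 0 of them, with 4 lower and 1 higher at an unadjusted p under 0.05. Beside these stand 10.2% and 11.6% of all tested genes, and 1378 and 596 of the 7819 genes with a mean of 500 or more. DESeq2 called *Gys2*, *Pygl* and *Pgm3*, beside 4.78%. *Gys2* (chr6:142422613-142473109), liver glycogen synthase, had 7689, 7498 and 7139 in the WT mice and 6318, 4856 and 5789 in the *Fmo5-/-* mice (log2 fold change -0.40, standard error 0.11, adjusted p = 0.083). *Pygl* (chr12:70190811-70231488), liver glycogen phosphorylase, which releases glucose 1-phosphate, had 33628, 32744 and 33334 in the WT mice and 28701, 19606 and 26787 in the *Fmo5-/-* mice (log2 fold change -0.41, standard error 0.14, adjusted p = 0.13). In both genes all 3 *Fmo5-/-* values lay below all WT values. *Ugp2*, which makes UDP-glucose, the substrate of glycogen synthase, had 14024, 12093 and 11900.2 in the WT mice and 11094, 7845 and 11204 in the *Fmo5-/-* mice (log2 fold change -0.33, standard error 0.14, adjusted p = 0.22). *Gbe1*, the branching enzyme, had 7345, 6425 and 5933 in the WT mice and 6310.4, 3559.5 and 4622 in the *Fmo5-/-* mice, with the first *Fmo5-/-* mouse inside the WT range (log2 fold change -0.44, standard error 0.20, adjusted p = 0.24). Without the second *Fmo5-/-* mouse the log2 fold changes moved towards 0, to -0.26 for *Pygl*, -0.18 for *Ugp2* and -0.26 for *Gbe1*. *Phka2*, a regulatory subunit of liver phosphorylase kinase, differed by 0.15 (adjusted p = 0.43) on the log2 scale.

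*Pgm3* (chr9:86554377-86571842) had the largest difference below 0 among the genes of this group, with 803, 1101 and 859 in the WT mice and 619, 626 and 512 in the *Fmo5-/-* mice (log2 fold change -0.65, standard error 0.14, adjusted p = 0.055). All *Fmo5-/-* values lay under all WT values, and DESeq2 gave an adjusted p of 0.00093. Its enzyme is known chiefly as phosphoacetylglucosamine mutase of the hexosamine pathway, which feeds protein glycosylation. The phosphoglucomutase genes listed as *Pgm1* and *Pgm2* had log2 fold changes of 0.00 (adjusted p = 0.99) and -0.16 (adjusted p = 0.34). *Dopey1* overlaps *Pgm3* on the opposite strand and had a mean of 968 counts beside 742 for *Pgm3*.

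Control of glycogen runs in part through subunits that bring protein phosphatase 1 to the particle, *Ppp1r3b* and *Ppp1r3c*, and these were among the most variable genes. *Ppp1r3b* (chr8:35375739-35388139) had 12699.8, 17457 and 18295 in the WT mice and 9929, 6499 and 17102 in the *Fmo5-/-* mice, so the third *Fmo5-/-* mouse lay with the WT mice and the other two below them (log2 fold change -0.53, standard error 0.37, adjusted p = 0.47). Its log2 fold change was -0.26 without the second *Fmo5-/-* mouse and -0.98 without the third. *Ppp1r3c* (chr19:36731731-36736653) had 6057, 2322 and 4978 in the WT mice and 6150.1, 3021 and 4177 in the *Fmo5-/-* mice, a wide range inside each genotype and nearly the same mean in both. *Gys1*, the synthase of muscle and other tissues, had only 116, 81.5 and 122 in the WT mice and 156, 135 and 155 in the *Fmo5-/-* mice, higher in each *Fmo5-/-* mouse (log2 fold change 0.48, standard error 0.19, adjusted p = 0.19), and overlaps the more highly counted *Ruvbl2* on the other strand.

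The 2 fructose and polyol genes were abundant and lower in all 3 *Fmo5-/-* mice, beside 21.9% of all genes with a mean of 500 or more. Neither of them passed the test. *Khk* (chr5:30921431-30931248), which phosphorylates fructose, had 31296, 27677 and 31004 in the WT mice and 25289, 18524 and 25558 in the *Fmo5-/-* mice (log2 fold change -0.38, standard error 0.13, adjusted p = 0.15), and a log2 fold change of -0.24 without the second *Fmo5-/-* mouse. *Sord* (chr2:122234749-122265340), which makes fructose from sorbitol, had 47367, 48312 and 41333 in the WT mice and 40085, 39523 and 39088 in the *Fmo5-/-* mice (log2 fold change -0.21, standard error 0.094, adjusted p = 0.24). The *Fmo5-/-* values of *Sord* were close together, with a coefficient of variation of 1.26%, and the gap to the third WT mouse was narrow.

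In the pentose phosphate pathway, which supplies NADPH and ribose 5-phosphate, the 2 NADPH-forming dehydrogenases pointed in different directions with all mice included. *G6pdx*, the first enzyme, had 389.7, 276 and 427 in the WT mice and 595, 453 and 404 in the *Fmo5-/-* mice, and *Pgd*, the next NADPH-forming enzyme, had 3373, 2945 and 4153 in the WT mice and 3440.2, 3084 and 3150.4 in the *Fmo5-/-* mice. Neither passed the test (0.41 and -0.11 on the log2 scale, adjusted p = 0.26 and 0.63), and both ranges overlap. When 1 mouse was left out, the log2 fold change of *Pgd* ran from -0.22 to 0.034. That of *G6pdx* was 0.23 without the first *Fmo5-/-* mouse. Of the non-oxidative enzymes, *Tkt*, transketolase, had 9136, 8087 and 9009.8 in the WT mice and 7971, 6148 and 7202 in the *Fmo5-/-* mice, without overlap (log2 fold change -0.30, standard error 0.11, adjusted p = 0.16), and *Taldo1*, transaldolase, differed by -0.15 (adjusted p = 0.33). *G6pdx* shares its locus with *Ikbkg* on the opposite strand, which had 5138 counts on average beside 429 for *G6pdx*.

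Several genes of low level had higher values in *Fmo5-/-* mice. *Hk2* (chr6:82725025-82774454) and *Hk3* (chr13:55005985-55021385) encode hexokinases with a high affinity for glucose, which hepatocytes are known to hold little of. *Hk2* had 101, 65.8 and 66.5 in the WT mice and 172, 233 and 128 in the *Fmo5-/-* mice (log2 fold change 1.19, standard error 0.27, adjusted p = 0.061). *Hk3* had 244, 189.7 and 161 in the WT mice and 451, 597 and 260.2 in the *Fmo5-/-* mice (log2 fold change 1.14, standard error 0.30, adjusted p = 0.092). The *Fmo5-/-* values of both genes lay above all WT values, and neither passed edgeR's threshold. The adjusted p by DESeq2 was 0.00089 for *Hk2* and 0.0011 for *Hk3*, but their means under 500 kept them out of its calls. *Hk1*, the hexokinase of most tissues, had 147, 155 and 168 in the WT mice and 224, 293 and 145 in the *Fmo5-/-* mice, with the third *Fmo5-/-* mouse below all WT mice. *Pfkp*, the platelet-type phosphofructokinase, had 192, 157 and 186 in the WT mice and 219.8, 368 and 212 in the *Fmo5-/-* mice (log2 fold change 0.58, standard error 0.22, adjusted p = 0.18) and overlaps the more highly counted *Pitrm1*. Without the second *Fmo5-/-* mouse the log2 fold change of *Pfkp* was 0.28 and that of *Hk1* 0.24.

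*Pkm* (chr9:59656368-59679375), the pyruvate kinase of most tissues other than liver and red cells, had 635, 630.5 and 585 in the WT mice and 1210.1, 1904 and 774 in the *Fmo5-/-* mice. The WT mice were close together and the *Fmo5-/-* mice far apart, with coefficients of variation of 4.52% and 44% (log2 fold change 1.07, standard error 0.32, adjusted p = 0.13). DESeq2 called it at 0.00077, and edgeR called it when the third *Fmo5-/-* mouse was left out, at an adjusted p of 0.00716, while without the second its log2 fold change was 0.69. *Aldoc* (chr11:78322968-78327781), the brain-type aldolase, had 469, 487 and 778 in the WT mice and 1004, 885 and 859 in the *Fmo5-/-* mice (log2 fold change 0.66, standard error 0.19, adjusted p = 0.11). Here the *Fmo5-/-* mice were close together and the third WT mouse stood nearest to them, and edgeR called the gene without that mouse, at an adjusted p of 0.00968.

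Within the *Fmo5-/-* genotype, *Hk1*, *Hk2*, *Hk3*, *Pkm* and *Pfkp* were each highest in the second mouse and lowest in the third. These 5 were singled out after their values were seen. In all, 10 of the 47 genes had this order, the others being *Pck2*, *Pgm3*, *Ldha*, *Aldoa* and *Taldo1*, beside 18.6% of all tested genes, and 5 of the 9 with a mean under 500 had it, beside 25.8% of all genes under 500. All 12 macrophage markers had a log2 fold change above 0, with a median of 1.12. EdgeR called 1 of them, *Clec4f*, beside 0.753% of all tested genes. DESeq2 called *Clec4f*, *Cd5l*, *C1qa*, *C1qb*, *C1qc*, *Vsig4*, *Csf1r*, *Lyz2* and *Marco*, beside 4.78%. Their summed level over the 12 markers was 322 to 371 CPM in WT and 474 to 873 in *Fmo5-/-* mice. The third *Fmo5-/-* mouse was the lowest of its genotype in 12 of 12 of them, beside 32.8% of all tested genes and 40.3% of those under 500, and 6 of 12 had the full order of the 5 genes. The rest, *Marco*, *Adgre1*, *Timd4*, *Csf1r*, *Lyz2* and *Vsig4*, were highest in the first *Fmo5-/-* mouse. Summed lymphocyte markers ran from 16.5 to 22.6 CPM in WT and from 24.6 to 56.3 in *Fmo5-/-* mice, and 7 of 10 had the order of the 5 genes. Summed neutrophil markers ran from 3.08 to 5.43 and from 6.32 to 12.8, and the 4 of 8 that passed the filter on low counts all had this order. No macrophage, lymphocyte or neutrophil marker was at 0 in all libraries. Macrophages are known to express *Hk3*, *Hk2* and *Pkm*, and the part of leukocyte RNA in the values of these genes was not tested. *Gys1* and *Aldoc*, also higher in every *Fmo5-/-* mouse, did not have this order, both being highest in the first.

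**Figure D4:**
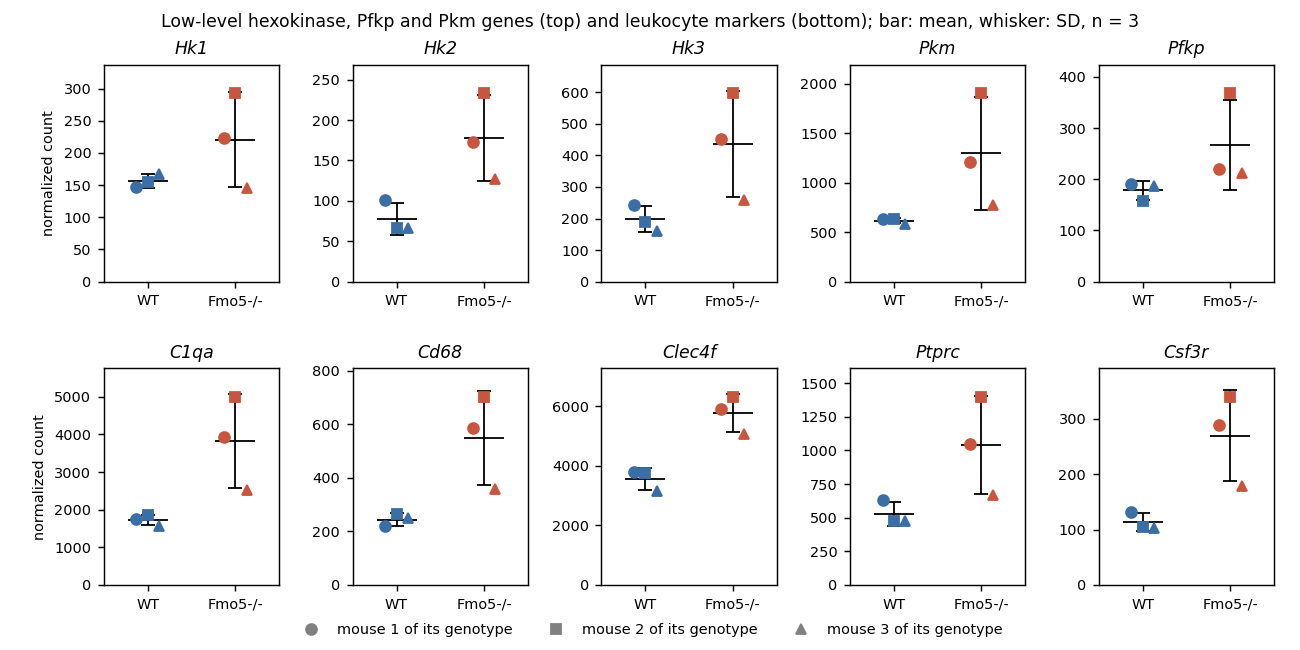
Normalized counts per mouse of *Hk1*, *Hk2*, *Hk3*, *Pkm* and *Pfkp* (top) and of 5 leukocyte markers that have the same order (bottom), each panel starting at 0, with the mean as a bar and the SD as whiskers (n = 3 per genotype). In every panel the second *Fmo5-/-* mouse (square) is the highest and the third (triangle) the lowest of its genotype. Only markers with this order were drawn. It was found in 6 of 12 macrophage, 7 of 10 lymphocyte and 4 of 4 tested neutrophil markers.

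The share of each form within its enzyme family was computed per kilobase in every mouse. Among *Hk1*, *Hk2* and *Hk3*, the share of *Hk1* was 17.2%, 22.5% and 26.4% in WT and 14.8%, 14.6% and 15.6% in *Fmo5-/-* mice. Per kilobase of exon, *Hk3* held most of the family in every mouse, at 58.6% to 66% in WT and 64.8% to 69% in *Fmo5-/-* mice. The majority in every mouse depends on this length. With the longest transcript as length, its mean share was 54.4% in WT and 61.3% in *Fmo5-/-* mice. The share of *Aldoc* in the sum of *Aldoa* and *Aldoc* was 10.3% to 13.7% in WT and 16.2% to 18.6% in *Fmo5-/-* mice. *Pkm* made up 1.84% to 2.85% of pyruvate kinase in WT mice and 4.31%, 16.7% and 2.52% in the *Fmo5-/-* mice, the second of which had both high *Pkm* and low *Pklr*. *Slc2a1* made up 3.92% to 6.21% of the 2 glucose transporters in WT and 7.72% to 10.2% in *Fmo5-/-* mice, *Gys1* 0.599% to 0.937% and 1.35% to 1.52% of glycogen synthase, and *Pfkp* 1.87% to 2.17% and 2.46% to 4.58% of phosphofructokinase. In 5 of the 9 families the genotypes did not overlap in at least 1 share, and in these the two-sided exact permutation test gave p = 0.1, the smallest that 3 mice against 3 allow, so no share can pass a threshold of 0.05. Of the forms typical of liver, *Pklr*, *Gys2*, *Slc2a2* and *Pck1* had at least 83.3% of their families in every mouse. The liver subunit *Pfkl* changed rank with *Pfkm* between mice. Its share was 48.4% against 49.6% in the first WT mouse and 51.3% against 46.9% in the second. It was the lower also in the third mouse of each genotype, and the higher in the first and second *Fmo5-/-* mice. With the longest transcript as length, its mean share was 59.3% in WT and 59% in *Fmo5-/-* mice.

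Spread between mice of 1 genotype was uneven over the genes. The median coefficient of variation of the 38 genes with a mean of 500 or more was 9.32% in WT and 12% in *Fmo5-/-* mice, beside 7.42% and 7.34% over all genes at that level. The second *Fmo5-/-* mouse was the lowest of the 6 libraries for 21 of the 38, where it was the lowest for 34.5% of all genes at that level. *Pklr* (chr3:89136142-89146784), L-type pyruvate kinase, whose gene is induced by glucose and insulin, had 14009.9, 21779 and 17356 in the WT mice and 17367, 6137 and 19385 in the *Fmo5-/-* mice. The low value of the second *Fmo5-/-* mouse decided its sign, as the log2 fold change was -0.31 with all mice and 0.053 without that one. The gene lies 8.48 Mb from *Fmo5*. In the same mouse *Fasn* and *Me1*, lipogenic genes that also respond to feeding, had their lowest values, 26022 and 2580.1, against 54967 to 84656 and 4699 to 12408 in the other 5, and it was the lowest mouse for 10 of 11 genes on a list of feeding-induced genes.

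*Pfkfb3* and *Ppp1r3c* singled out another animal, the second WT mouse. *Pfkfb3* (chr2:11471433-11554077), which encodes the form of the fructose 2,6-bisphosphate enzyme with the strongest kinase side, had 177, 1344 and 236 in the WT mice and 315, 349 and 427 in the *Fmo5-/-* mice. Without that mouse its log2 fold change turned from -0.68 to 0.82. *Ppp1r3c* was lowest in the same mouse, at 2322. Clock genes set this mouse apart as well. *Dbp*, an output gene of the clock, had 557, 1772 and 330.2 in the WT mice and 385, 324 and 818 in the *Fmo5-/-* mice. *Arntl*, which encodes the clock activator BMAL1, had 1299, 497 and 1347 in the WT mice and 1168, 983 and 948 in the *Fmo5-/-* mice. *Npas2*, a partner of BMAL1, had 337, 63.6 and 383 in the WT mice and 327, 266 and 191 in the *Fmo5-/-* mice. Thus the second WT mouse was the highest of 6 for *Dbp* and *Pfkfb3* and the lowest for *Arntl*, *Npas2* and *Ppp1r3c*. The third *Fmo5-/-* mouse was the next in *Dbp*, *Pfkfb3*, *Arntl* and *Npas2* but not in *Ppp1r3c*. The hour at which each mouse was sampled is known only as a range over the study, and its part in these values was not tested.

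The starts of these 2 genes are shown because both hold CACGTG, the E-box letters that BMAL1 and its partners are known to bind, as do other factors of their class. Windows are those of RefSeq on GRCm38.p6, from 250 bases before to 50 bases after an annotated start, in the direction of the gene, with the E-box in capitals. That of *Pfkfb3* is 1 of 2 windows of the gene, chr2:11502041-11502340 on the minus strand, and its E-box begins 53 bases before the start. That of *Ppp1r3c* is chr19:36736555-36736854 on the minus strand, and its E-box begins 104 bases before the start.
*Pfkfb3*: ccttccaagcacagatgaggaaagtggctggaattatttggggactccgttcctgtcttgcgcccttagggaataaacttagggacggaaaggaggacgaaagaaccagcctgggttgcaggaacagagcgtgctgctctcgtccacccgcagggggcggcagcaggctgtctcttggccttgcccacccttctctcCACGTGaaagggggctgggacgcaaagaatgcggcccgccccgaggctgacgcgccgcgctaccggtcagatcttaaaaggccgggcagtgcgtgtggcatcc
*Ppp1r3c*: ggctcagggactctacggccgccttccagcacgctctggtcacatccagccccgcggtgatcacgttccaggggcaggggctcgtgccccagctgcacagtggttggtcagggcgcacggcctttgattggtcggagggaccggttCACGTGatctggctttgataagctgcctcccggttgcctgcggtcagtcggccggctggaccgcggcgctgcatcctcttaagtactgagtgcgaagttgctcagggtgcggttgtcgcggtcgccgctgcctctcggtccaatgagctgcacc
CACGTG was in 7 of the 66 windows of the matched genes, or 10.6%, and in 7.15% of all 32851 windows. The other genes with a match were *Gk*, *Khk*, *Ldha*, *Pcx* and *Pfkm*, of which *Pfkm* and *Pcx* had overlapping genotypes and the others did not. The 2 windows of *Gpd2* and the 4 of *Pfkfb1* hold neither these letters nor those of the cAMP elements.

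**Figure D5:**
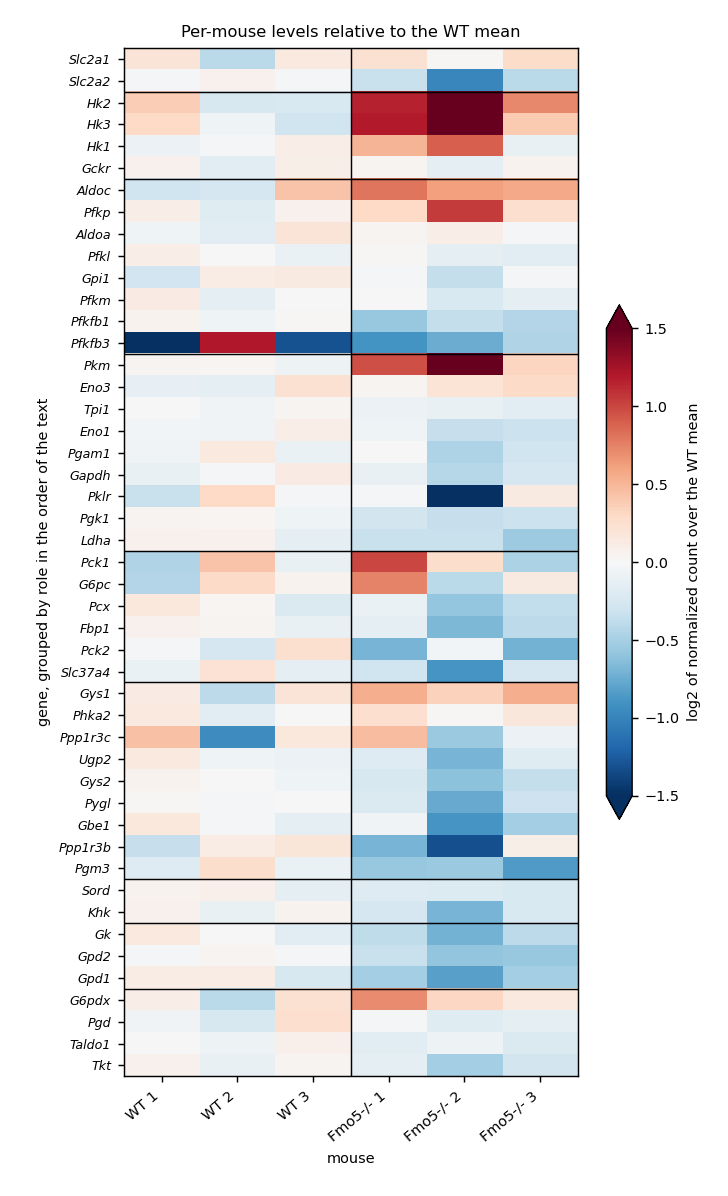
Log2 of the normalized count over the WT mean for the 47 genes (rows, grouped by role) in each of the 6 mice (columns), with colours capped at 1.5 either way. The second WT mouse stands apart in *Pfkfb3* and *Ppp1r3c*, the first *Fmo5-/-* mouse in *Pck1* and *G6pc*, and the second *Fmo5-/-* mouse in *Pklr*, *Ppp1r3b* and *Slc2a2* on the low side and in *Hk2*, *Hk3* and *Pkm* on the high side.

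A further 61 genes of the same pathways were tested, and 0 of them were called by edgeR, with 9 lower and 4 higher at an unadjusted p under 0.05, beside 10.2% and 11.6% of all tested genes, and 2 calls by DESeq2, *Slc2a9* and *Galm*, beside 4.78%. Their median log2 fold change was -0.04. *G6pc3*, the glucose 6-phosphatase subunit found in all tissues, had 343, 346 and 375 in the WT mice and 507, 566 and 480.1 in the *Fmo5-/-* mice and an adjusted p of 0.0499, but its mean was under 500. *Slc2a9*, a urate and hexose transporter, had 2911, 2842 and 2771 in the WT mice and 2283, 2167 and 2365 in the *Fmo5-/-* mice (log2 fold change -0.32, standard error 0.074, adjusted p = 0.064). *Galm*, galactose mutarotase, had 7743, 7817 and 7527 in the WT mice and 6453, 5569 and 6446 in the *Fmo5-/-* mice (log2 fold change -0.32, standard error 0.087, adjusted p = 0.085). In these 3 genes the genotypes did not overlap. *Tkfc*, triokinase, which follows *Khk* in fructose breakdown, had 22022, 26840.2 and 24457 in the WT mice and 21384, 11606 and 21035 in the *Fmo5-/-* mice (log2 fold change -0.44, standard error 0.23, adjusted p = 0.31). *Ppp1r3d*, a further glycogen-targeting subunit, had only 7.16 to 28.5 normalized counts, and *Epm2a* and *Nhlrc1*, which encode laforin and malin of glycogen quality control, had adjusted p-values of 0.99 and 0.99 by edgeR.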

How the data were processed

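The authors clipped adapters from single reads of 75 bases, mapped them to mm10 with STAR 2.6.0c, let STAR count reads per gene, and deposited these raw counts; the annotation release is not given in the sources used here. The authors also deposited signal values, the counts of both strands divided by 1 DESeq2 1.22.2 size factor per library, which served here only to check the strand setting, together with their own fold changes, test statistics and p-values, which were not used. Positions are those of GENCODE vM21 on GRCm38. Counts were filtered with filterByExpr (minimum count 10), scaled by TMM and fitted with the robust quasi-likelihood test of edgeR 4.0.16 in R 4.3.3, with Benjamini-Hochberg adjustment over 16734 genes. A call needed an adjusted p under 0.05 and a mean of 500 or more, the limits that the study used with DESeq2. Of the reads, 66.2% to 69.2% fell on genes. Alternatives were DESeq2 1.42.0, RLE factors, scaling without the 20 most abundant genes, no filter, the limit of 500 before the fit, counts of 1 strand, the longest transcript as length, and leaving out each mouse. The edgeR steps were tested on simulated data, with an adjusted p under 0.05 as a call and no limit on the mean. Of genes given a log2 change of 0.5, 11.9% were recovered, against 70.1% at 1 and 90.9% at 2. Of the 119 calls, 4 were false. Differences near 0.5, as in many of the 47 genes, would therefore mostly be missed. The members and lists were chosen with earlier results of these data known. All 47 genes are named. Of the other pathway genes and regulators, those called and some with a small adjusted p are named, while others, such as *Foxo3* and *Rpe*, are not. Further genes, such as *Tkfc*, *Pgm1*, *Pgm2*, *Epm2a*, *Nhlrc1*, and single clock, fasting and feeding genes, were picked after their values were seen. Some genes of these pathways are not reported here.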

Additional observations from a re-analysis of the deposited data

How the results depend on the processing

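The number of calls depended on the processing. Over all genes, the 126 calls (83 lower, 43 higher) became 744 (528 and 216) with DESeq2, 981 (704 and 277) with no filter on low counts, and 53 with 23 lower when the limit of 500 was set before the fit; leaving out 1 mouse gave 14 to 259 calls, 7 to 107 lower and 7 to 152 higher, with the fewest without the first *Fmo5-/-* mouse and the most without the third. Among the 47 genes, the 2 lower calls became 10 with DESeq2, 17 with no filter and 0 with the limit before the fit, and 0 to 3 without 1 mouse; the 0 higher calls became 2, 1 and 0, and 0 to 1. Of the other pathway genes, 0 calls became 2 with DESeq2 and 5 with no filter, and stayed at 0 without any 1 mouse. The median log2 fold change of the 47 genes, -0.24, ran from -0.33, without the first *Fmo5-/-* mouse, to -0.18, while that of all genes with a mean of 500 or more, -0.06, was -0.079 with DESeq2, -0.075 with no filter, 0.0016 with the limit before the fit, -0.072 with counts of 1 strand, and -0.077 to -0.050 without 1 mouse. With the longest transcript as length, the genotype difference in share fell from 5.49 to 3.83 percentage points for *Aldoc* and from 2.15 to 0.992 for *Eno3* and rose from 0.654 to 0.846 for *Gys1*; that of *Hk3*, 4.73, was 8.42 with counts of 1 strand and 2.63 without the third WT mouse.

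The sign of the log2 fold change turned in a few genes. *Gckr* was 0.048 with the limit before the fit, and *Ppp1r3c* was 0.0030 with scaling without the 20 most abundant genes, 0.054 with the limit before the fit and 0.0040 with counts of 1 strand. Without 1 mouse the log2 fold changes ran from -0.061 to 0.68 for *Pck1*, -0.11 to 0.47 for *G6pc*, -0.089 to 0.047 for *Gckr*, -0.31 to 0.29 for *Ppp1r3c*, -0.59 to 0.053 for *Pklr*, -0.032 to 0.15 for *Aldoa*, -1.11 to 0.82 for *Pfkfb3* and -0.22 to 0.034 for *Pgd*. In 18 further genes (*Khk*, *Pck2*, *Slc37a4*, *Hk1*, *Slc2a1*, *Gbe1*, *Phka2*, *Ppp1r3b*, *Pygl*, *Ugp2*, *Eno3*, *Pgam1*, *Pkm*, *Gpi1*, *Pfkl*, *Pfkm*, *Pfkp* and *G6pdx*) the log2 fold change kept its sign but moved by over 1.5 times without some 1 mouse, towards 0 in 16 of them, as in *Slc2a1*, from 0.18 to 0.015 without the second WT mouse, and *G6pdx*, from 0.41 to 0.23 without the first *Fmo5-/-* mouse. Of 282 refits of the 47 genes without 1 mouse, 255 kept direction and side of the threshold, 10 lost and 4 gained a call and 13 turned sign; of 273 with other settings the numbers were 240, 2, 27 and 4. The cause was not tested. Total counts as library size, chosen after seeing the data, gave a median coefficient of variation of 10.5% in WT and 11.2% in *Fmo5-/-* mice, against 10.6% and 13.1%. No paired analysis was possible because the labels give the mice no replicate numbers.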

Other observations

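Genes that steer these pathways in liver were read from lists. As background, 10.2% of all tested genes were lower and 11.6% higher at an unadjusted p under 0.05, and DESeq2 called 4.78%. A log2 fold change below 0 was found in 8234 of all 16734 tested genes, and in 64% of those with a mean of 500 or more. Of 24 regulators that sense glucose, insulin, glucagon or fasting, 0 were called by edgeR, 3 had an unadjusted p under 0.05, all lower, and 1, *Hif1a*, was called by DESeq2. *Hif1a*, which encodes the oxygen-sensitive activator of many glycolytic genes, had 1556, 1685 and 1584 in the WT mice and 1275, 1040.0 and 1318 in the *Fmo5-/-* mice (log2 fold change -0.41, standard error 0.10, adjusted p = 0.073 by edgeR), with no overlap. *Mlx*, the partner of the glucose-responsive factor ChREBP, had 1434, 1444 and 1603 in the WT mice and 1208, 1302 and 1340.1 in the *Fmo5-/-* mice (log2 fold change -0.22, standard error 0.083, adjusted p = 0.17), while *Mlxipl*, which encodes ChREBP itself, differed by -0.07 (adjusted p = 0.81) with overlap. *Foxo1* and the glucagon receptor gene *Gcgr* had log2 fold changes of -0.03 and -0.07.

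All 11 feeding-induced genes had a log2 fold change below 0, or 9 of the 10 that remain when the limit of 500 is set before the fit, with a median of -0.45 and 0 calls by edgeR, 3 genes at an unadjusted p under 0.05 and 3 calls by DESeq2. *Me1* was the furthest, with 12408, 8338 and 11622 in the WT mice and 5856, 2580.1 and 4699 in the *Fmo5-/-* mice (log2 fold change -1.30, standard error 0.32, adjusted p = 0.096). Of 15 fasting-induced genes, 10 lay below 0, with a median of -0.32, 0 calls by edgeR, 3 genes at an unadjusted p under 0.05 and 1 call by DESeq2. *Fgf21*, a hormone that the fasted liver secretes, had 157, 102 and 107 in the WT mice and 42.9, 14.7 and 41.2 in the *Fmo5-/-* mice and an adjusted p of 0.0494, under a mean of 500. Lists of genes that rise with feeding and with fasting therefore both had medians below 0.

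Of 10 periportal markers, from the zone where gluconeogenesis is known to be strongest, 7 lay below 0, with a median of -0.18, 0 calls by edgeR, 4 genes at an unadjusted p under 0.05 and 4 calls by DESeq2. *Cyp2f2* had 42015, 46836 and 45992 in the WT mice and 33125, 27370.1 and 35617 in the *Fmo5-/-* mice (log2 fold change -0.49, standard error 0.11, adjusted p = 0.069). Of 10 pericentral markers, 8 lay above 0, with a median of 0.26 and 1 call, *Cyp1a2*, with 29744, 32486 and 29896 in the WT mice and 46672, 52512 and 45632 in the *Fmo5-/-* mice (log2 fold change 0.65, standard error 0.095, adjusted p = 0.021). *Glul* and *Cyp2e1*, of the same list, had log2 fold changes of 0.07 and -0.06. Summed pericentral markers overlapped, at 7258 to 10333 CPM in WT and 8619 to 10417 in *Fmo5-/-* mice. Summed periportal markers did not, at 6110 to 6699 and 4894 to 5817.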
